A study of Saccharomyces cerevisiae with 13 samples.

Results

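Transcript levels in the second G1/S transition of a synchronized budding yeast culture (Saccharomyces cerevisiae) were compared with those in its second mitosis. The first window holds the samples taken 80 and 90 min after release from alpha factor, and the second those taken at 110 and 120 min, so 4 of the 13 samples of the time course enter the comparison. Alpha factor is a pheromone secreted by MATalpha cells, and it arrests MATa cells before Start, in G1. All 4 samples had passed that arrest and had grown in YEPD, a rich glucose medium, since their release. Each was labelled with Cy5 and hybridised on its own 2-colour array with a Cy3-labelled asynchronous culture, likewise grown in YEPD. The strain, its genotype and the mating type of the reference are not given in the labels. There is 1 array per time point and no repeated sample, so the spread used here is that between neighbouring time points of a window, which holds real change over 10 min as well as measurement error. Values are log2 ratios, and a difference is the mean of 80 and 90 min minus the mean of 110 and 120 min, so that a positive difference means a higher level in G1/S. The ratio's direction is stated nowhere and was taken as time point over reference. That direction is likely, because the pheromone response and MATa-specific list had a median of 2.52 log2 at 0 min, and the opposite one would exchange the windows throughout.

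Passage from G1 into S phase in budding yeast is driven by the transcription factors SBF and MBF. They switch on the G1 cyclins, the DNA replication enzymes and the genes of bud growth, and the histone genes follow while DNA is copied. Later a complex of Mcm1, a forkhead factor and Ndd1 switches on the CLB2 cluster, whose products drive mitosis and prepare cytokinesis. Factors such as Swi5 then act on genes of mitotic exit and cell separation, such as the SIC1 cluster. These waves are the gene groups by which the results are ordered below.

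Between windows, 23 of 6158 tested genes (0.373%) passed a limma test across all genes at an adjusted p under 0.05. Of these, 17 (0.276%) were higher at 80 and 90 min and 6 (0.0974%) at 110 and 120 min. The first set held the G1 cyclins CLN1 and CLN2, the Pho85 cyclin PCL1, the bud neck kinase HSL1 and the replication protein RFA1. The second held CHS2 and HOF1 of cytokinesis and the deacetylase HST3. Their sizes ran from 0.98 to 1.72 log2. At an unadjusted p under 0.05, 387 genes (6.28%) were higher at 80 and 90 min and 253 (4.11%) at 110 and 120 min. Windows that did not overlap were common, with 1198 genes (19.5%) higher on both early arrays and 1411 (22.9%) higher on both late ones. A second, untested description asked that both arrays of a window lie above both of the other and that the means differ by at least 1 log2, which is 2-fold. This switch rule took 59 genes, 41 (0.666%) higher in G1/S and 18 (0.292%) higher in mitosis, with 21 of the 23 called genes among them.

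**Figure D1:**
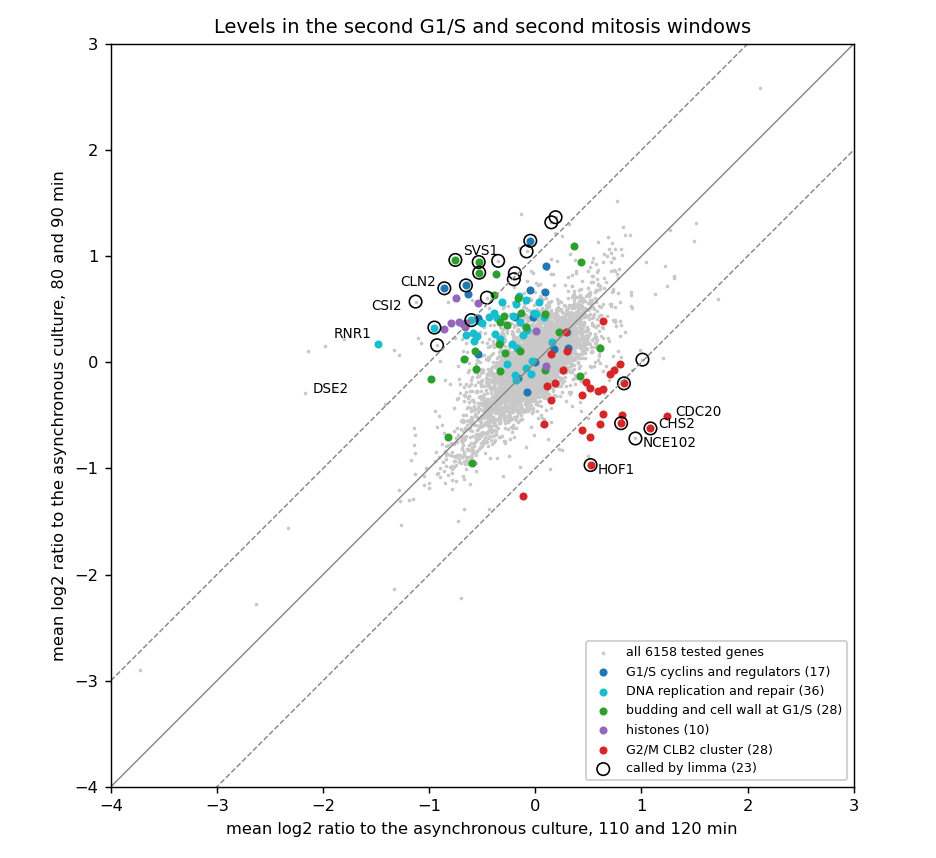
Mean log2 ratio of each of 6158 tested genes at 110 and 120 min (x axis) against the mean at 80 and 90 min (y axis), with 5 gene lists in colour and the 23 called genes ringed. The solid line marks equal levels and the dashed lines a difference of 1 log2. Most genes of the G1/S lists and the core histones lie above the diagonal and all 28 tested genes of the CLB2 cluster below it.

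The number of calls depended on single arrays and settings. It was 0 without the 120 min array, 5 without the 80 min array, 16 without the 110 min array and 63 without the 90 min array. With values at the limit of the deposited range kept, it was also 0, although 609 genes then had an unadjusted p under 0.05 by limma. The 23 genes kept their direction in all 12 alternatives, which was largely fixed in advance and lends the calls no support. Their windows do not overlap, so leaving out 1 array cannot reverse a sign. Several other alternatives change the error and not the difference. Of the 59 genes of the switch rule, 20 (16 and 4) kept a difference of at least 1 log2 whichever array was left out. An exact permutation test of 2 arrays against 2 cannot give a p below 0.333 for a single gene, so none was run.

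The labels of the windows were set beside marker lists, whose values are also part of the results below and so give no independent check. The median of G1/S cyclins and regulators was 0.72 and 0.20 log2 at 80 and 90 min, against -0.09 and -0.05 at 110 and 120 min. For DNA replication genes it was 0.47 and 0.18 log2, against -0.25 and -0.20. The histone list had its highest median of the 80 to 120 min samples at 90 min (0.63 log2), and that of the CLB2 cluster ran from -0.34 and -0.18 log2 at 80 and 90 min to 0.40 and 0.58 at 110 and 120 min. The windows are not pure phases. The SIC1 cluster, a mark of late mitosis and early G1, still had a median of 0.42 log2 at 80 min, and the M/G1 list of origin loading genes and genes driven by the early cell cycle box, ECB, stood at 0.17 log2 at 120 min after -0.10 at 110 min. These are samples of whole cultures, so a change in the share of cells in a phase and a change in RNA per cell cannot be told apart. SDs over genes were alike on the 4 arrays, from 0.31 to 0.35 log2. Across genes, which are not independent replicates, the 80 and 90 min arrays correlated at r = 0.68 and the 110 and 120 min arrays at r = 0.67, against 0.49 to 0.58 across windows.

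**Figure D2:**
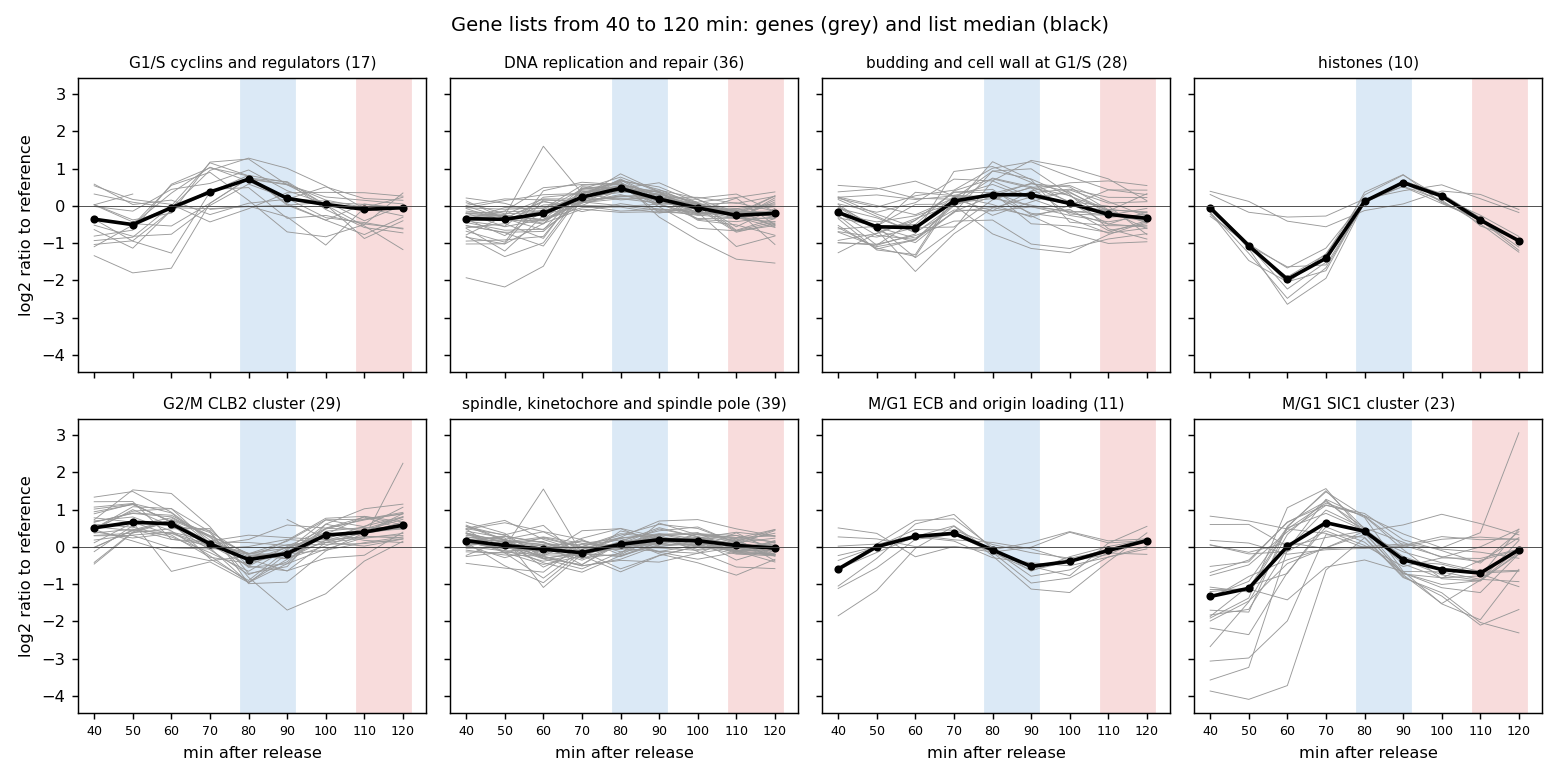
Log2 ratio to the reference (y axis) against minutes after release (x axis) for the 9 arrays of 40 to 120 min, with each gene of 8 lists in grey and the list's median in black. The blue band marks 80 and 90 min and the red band 110 and 120 min. Replication genes and G1/S regulators were highest at 80 min within the bands, histones at 90 min, and the CLB2 cluster was higher in the red band than in the blue.

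The cyclins CLN1, CLN2 and PCL1 fell between the windows. CLN2, which with CLN1 binds the kinase Cdc28 to drive cells past Start, measured 0.75 and 0.65 log2 at 80 and 90 min and -0.54 and -1.17 at 110 and 120 min. Both early arrays lay above both late ones, and the difference was 1.55 ± 0.21 log2 (SE), or 2.94-fold, with an adjusted p of 0.0478 by limma. CLN1 measured 1.28 and 1.01 log2 in the early window and -0.08 and -0.01 in the late one, a difference of 1.19 ± 0.14 log2 (adjusted p = 0.0373). Its late level thus stood near that of the asynchronous culture, whereas CLN2 went below it. PCL1, a cyclin partner of the kinase Pho85 in G1, measured 0.82 and 0.63 log2 against -0.58 and -0.73 (difference 1.38 ± 0.13, adjusted p = 0.0304). Its relative PCL2 had a difference of 0.45 ± 0.24 log2 and did not pass (adjusted p = 0.552). PCL2 had already dropped to 0.05 log2 at 90 min, from 1.02 at 70 min and 0.80 at 80 min. CLN3, the cyclin that acts upstream of CLN1 and CLN2, differed by -0.25 ± 0.23 log2 (adjusted p = 0.745).

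Of the 17 G1/S cyclins and regulators, these 3 genes passed the test, against 0.276% of all tested genes in that direction. An unadjusted p under 0.05 with the higher level at 80 and 90 min was found for 11, against 6.28%. None had one in the opposite direction. The median difference was 0.62 log2 (0.46 without the 80 min array and 1.02 without the 90 min array), against -0.02 over all tested genes. TOS4, a forkhead-associated protein and target of SBF and MBF, measured 0.72 and 0.57 log2 against -0.88 and -0.40, with no overlap, and missed the threshold with 1.28 ± 0.18 log2 (adjusted p = 0.0524). The factors had smaller differences, and none of them passed. SWI4, the DNA-binding subunit of SBF, differed by 0.74 ± 0.19 log2 (adjusted p = 0.241), and HCM1, the forkhead factor of S phase, by 0.93 ± 0.16 (0.105). The ECB repressor YOX1 differed by 0.81 ± 0.22 log2 (adjusted p = 0.267) and MSA2, which binds SBF and MBF, by 0.95 ± 0.27 (0.289). All 4 were already lower at 90 than at 80 min, YOX1 with 0.56 after 1.26 log2 and MSA2 with 0.02 after 0.81, and such steps inside a window enter the error.

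The S phase cyclins and the other listed genes did not pass either. CLB6 measured 0.66 and 0.19 log2 in G1/S and -0.40 and 0.01 in mitosis (difference 0.62 ± 0.21, adjusted p = 0.387). CLB5, its partner in starting replication, stayed between -0.05 and 0.04 log2 on the 4 arrays, with a difference of 0.00 ± 0.12 (adjusted p = 0.991). SPT21, needed for histone gene transcription, and SWE1, the kinase that restrains Cdc28 in G2, differed by 0.62 ± 0.25 and 0.57 ± 0.15 log2 (adjusted p = 0.475 and 0.236). Besides CLB5, differences within 0.2 log2 of 0 were found for the SBF inhibitor WHI5 (0.01 ± 0.15), the MBF co-repressor NRM1 (-0.05 ± 0.12), the ECB repressor YHP1 (-0.17 ± 0.17) and MSA1 (-0.20 ± 0.34), with adjusted p from 0.768 to 0.985. The MSA1 value rests on arrays that differ, since it was -0.62 log2 without the 80 min or the 110 min array and 0.23 without the 90 min or the 120 min array.

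**Figure D3:**
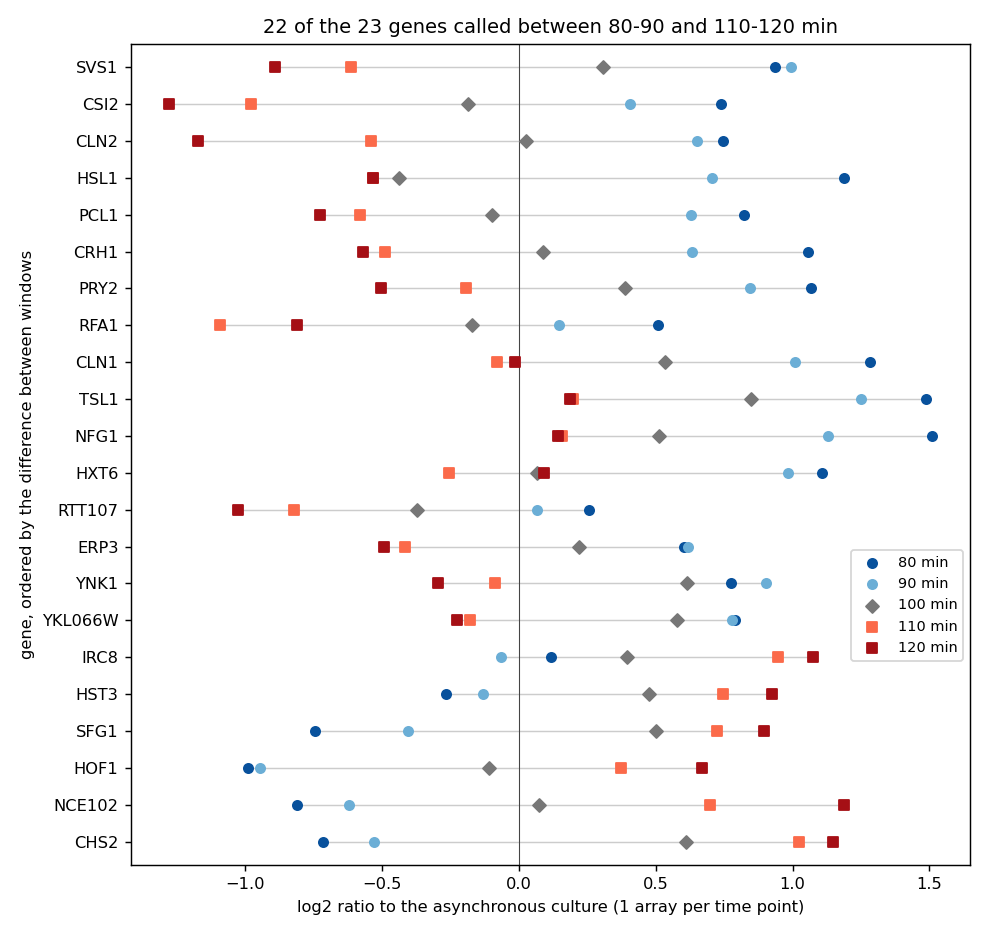
Log2 ratio to the reference (x axis) on the arrays at 80, 90, 100, 110 and 120 min for 22 of the 23 called genes (y axis, ordered by the difference between windows). Each symbol is 1 array. In each gene the arrays of 80 and 90 min (circles) and of 110 and 120 min (squares) do not overlap, which the choice of called genes favours, and in all but HXT6 the 100 min array lies between them.

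Most genes of DNA replication and repair had a higher mean in the early window, and few passed the test. Of 36 tested, 34 had a positive difference, as did 2865 of all 6158 tested genes. In that direction 23 had an unadjusted p under 0.05, against 6.28% of all tested genes, and none in the other. After adjustment 2 passed, against 0.276%. The median difference was 0.54 log2. RFA1, the large subunit of the single-strand binding complex RPA, measured 0.51 and 0.15 log2 at 80 and 90 min and -1.09 and -0.81 at 110 and 120 min, a difference of 1.28 ± 0.17 (adjusted p = 0.0478). The largest difference in the list belonged to RNR1, which encodes the large subunit of ribonucleotide reductase and is named here after its values were seen. RNR1 measured 0.66 and -0.30 log2 against -1.43 and -1.54, and did not pass with 1.66 ± 0.29 (adjusted p = 0.099). Its early arrays thus lay on either side of the asynchronous level. In the list, 29 of 36 genes were higher at 80 than at 90 min, against 49.4% of all tested genes.

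The 8 cohesin genes, which hold sister chromatids together, had a median difference of 0.58 log2. None passed, and 5 had an unadjusted p under 0.05 with the higher level in G1/S, against 6.28% of all tested genes. MCD1, the subunit that separase cuts, measured 0.78 and 0.40 log2 against -0.69 and -0.49 (difference 1.19 ± 0.17, adjusted p = 0.0524). The other ring subunits differed less, IRR1 by 0.79 ± 0.15, SMC3 by 0.61 ± 0.18 and SMC1 by 0.56 ± 0.13 log2 (adjusted p = 0.128, 0.31 and 0.186). The cohesin-associated PDS5 differed by 0.81 ± 0.20 log2, the loader SCC2 by 0.31 ± 0.15, the acetyltransferase ECO1 by 0.19 ± 0.13 and the release factor RAD61 by -0.02 ± 0.12 (adjusted p from 0.211 to 0.967).

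Genes of bud growth and cell wall assembly supplied the largest call of the early window. SVS1, a cell wall protein, measured 0.93 and 0.995 log2 at 80 and 90 min and -0.62 and -0.89 at 110 and 120 min. The difference was 1.72 ± 0.14 log2, or 3.29-fold (adjusted p = 0.0211). HSL1, the bud neck kinase that directs Swe1 to destruction, measured 1.19 and 0.70 log2 against -0.53 on both late arrays, a difference of 1.48 ± 0.18 (adjusted p = 0.0373). CRH1, which links chitin to glucan in the wall, measured 1.06 and 0.63 log2 against -0.49 and -0.57 (difference 1.37 ± 0.17, adjusted p = 0.0373). These were the 3 calls among 28 tested genes of the list, against 0.276% of all tested genes in that direction. In the list 15 had an unadjusted p under 0.05 with the higher level in G1/S and 2 with the higher level in mitosis. Over all tested genes these shares were 6.28% and 4.11%. The median difference of the list was 0.56 log2, and 24 of 28 were positive. The septin and bud neck kinases GIN4 and KCC4, relatives of HSL1 chosen after their values were seen, differed by 0.76 ± 0.14 and 0.71 ± 0.18 log2 and did not pass (adjusted p = 0.122 and 0.233).

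The histone list had a median difference of 1.07 log2 without a single call by limma. Of its 10 genes, 8 had an unadjusted p under 0.05, against 6.28% of all tested genes in that direction. The median was 0.82 log2 without the 90 min array and 0.77 without the 120 min array. With the 60 min curve over the arrays from 40 min on, 7 of the 10 genes passed, but that setting called more genes in general. It called 133 of 6156 genes, against 23 of 6158 in the main test. In the CLB2 cluster calls rose from 4 to 17, and in replication and repair from 2 to 12. The 8 core histone genes encode H2A, H2B, H3 and H4 from paired loci. They lay between 0.07 and 0.37 log2 at 80 min, between 0.51 and 0.84 at 90 min, between -0.54 and -0.25 at 110 min and between -1.24 and -0.82 at 120 min. Every core histone gene was thus higher on both early arrays than on both late ones, as were 19.5% of all tested genes, and 7 of the 8 passed the switch rule, against 0.666%. Their differences ran from 0.996 to 1.35 log2, with unadjusted p from 0.00117 to 0.0073 and adjusted p from 0.122 to 0.247 by limma. The spread inside the windows followed 1 order, in that all 8 were higher at 90 than at 80 min and higher at 110 than at 120 min. HHF1, a histone H4 gene, had the largest difference (1.35 ± 0.26 log2), with 0.37 and 0.84 log2 against -0.39 and -1.11. The paired histone genes are close copies, and whether their spots share signal was not tested. HHO1, the linker histone H1, differed by 0.29 ± 0.17 log2 (adjusted p = 0.586), and HTZ1, the variant H2A.Z, by -0.14 ± 0.17 (0.808).

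Inside the early window the histone list stepped up from 80 to 90 min, as did some other lists, and several lists stepped down. Among the G1/S cyclins and regulators 14 of 17 were higher at 80 than at 90 min, with a median step of 0.29 log2, and for replication and repair the median step was 0.21 log2. In the histone list none of 10 was higher at 80 min, and the median step was -0.49 log2. The SIC1 cluster stepped down in 19 of 23 genes, with a median of 0.79 log2. In the cohesin and budding lists 62.5% and 57.1% of genes were higher at 80 min, nearer to the 49.4% of all tested genes. Upward steps were also seen in the CLB2 cluster, where 28.6% of genes were higher at 80 min (median step -0.19 log2). In the spindle list 30.8% were higher at 80 min (-0.22 log2), and in ribosome biogenesis and glycolysis 23.8% each (-0.15 and -0.12 log2). These steps rest on 1 array at each time and have no test.

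Genes of the spindle, the kinetochore and the spindle pole differed little. None of 39 passed, and their median difference was 0.13 log2. At an unadjusted p under 0.05, 4 were higher in G1/S and 2 in mitosis, against 6.28% and 4.11% of all tested genes. The largest on each side were SLK19 (0.84 ± 0.12 log2, adjusted p = 0.0543), a kinetochore protein, and ASE1 (-0.76 ± 0.17, adjusted p = 0.179), which bundles midzone microtubules. Both are named after their values were seen. None of the factors that act in G2 passed. FKH1 and FKH2, the forkhead partners of Mcm1, differed by -0.24 ± 0.24 and -0.07 ± 0.18 log2, the coactivator NDD1 by 0.17 ± 0.12 and MCM1 itself by 0.17 ± 0.22 (adjusted p = 0.768, 0.929, 0.663 and 0.823). Single arrays set the values of FKH1, which was -0.63 log2 without the 90 min array and 0.15 without the 80 min array, and of MCM1, which was -0.16 and 0.50. PLM2, TOS8 and WTM1 differed by 0.07 ± 0.13, 0.03 ± 0.13 and 0.17 ± 0.13 log2 (adjusted p from 0.691 to 0.961). The G2 cyclins CLB3 and CLB4 differed by 0.19 ± 0.13 and 0.13 ± 0.14 log2 (adjusted p = 0.646 and 0.779). A p that misses the threshold does not show that these levels were equal.

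The CLB2 cluster was higher in the mitotic window. All 28 tested genes had a negative difference, as did 3293 of all 6158 tested genes. In the cluster 24 had an unadjusted p under 0.05 and 4 passed after adjustment, against 4.11% and 0.0974% of all tested genes in that direction. The median difference was -0.82 log2. CHS2, the chitin synthase of the primary septum, measured -0.71 and -0.53 log2 at 80 and 90 min and 1.02 and 1.15 at 110 and 120 min. The difference was -1.71 ± 0.13 log2, a rise of 3.27-fold (adjusted p = 0.0211). HOF1, an F-BAR protein of the contractile ring, measured -0.99 and -0.95 log2 against 0.37 and 0.67 (-1.49 ± 0.14, adjusted p = 0.0304). SFG1, a putative transcription factor of surface growth, measured -0.74 and -0.40 log2 against 0.72 and 0.90 (-1.38 ± 0.16, adjusted p = 0.0373). HST3, the deacetylase that removes the acetyl group put on newly made histone H3, measured -0.27 and -0.13 log2 against 0.75 and 0.93 (-1.03 ± 0.13, adjusted p = 0.0478). Each of the 4 was higher on both late arrays than on both early ones, which the choice of called genes favours. The same held for 22.9% of all tested genes. Each was also higher at 120 than at 110 min. Such a rise was common, since 45.3% of all tested genes were higher at 110 min and their median of 110 minus 120 min was -0.02 log2.

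The best known regulators of the cluster did not pass. CLB1 and CLB2, the mitotic cyclins, measured -0.96 and -0.95 log2 at 80 min, -0.45 and -0.34 at 90 min, 0.53 and 0.41 at 110 min and 0.50 and 0.48 at 120 min. Neither overlapped between windows, as was so for 22.9% of all tested genes in that direction, with differences of -1.22 ± 0.18 and -1.09 ± 0.20 log2 (adjusted p = 0.0604 and 0.122). CDC5, the polo kinase, measured -0.97 and -0.19 log2 against 0.40 and 0.81 (-1.18 ± 0.26, adjusted p = 0.185). All 3 genes were lower at 80 than at 90 min. CDC20, which activates the APC ubiquitin ligase, had the largest mean difference of the cluster, -1.75 ± 0.56 log2, which rested on the 120 min array (adjusted p = 0.359). It measured -0.55, -0.45, 0.25 and 2.25 log2, and without the 120 min array its difference was -0.75 log2. The transcription factor SWI5 differed by -0.66 ± 0.16 log2 (adjusted p = 0.205). WSC4 has no value at 80 min and was not tested. By the switch rule 11 genes of the cluster were higher in mitosis, against 0.292% of all tested genes. They were the 4 called genes, CLB1, CLB2, CDC5 and CDC20 and also SUR7, MMR1 and PHO3.

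The lists of M/G1 had medians of opposite sign. In the ECB and origin loading list, none of 11 genes passed, all 11 had a negative difference and the median was -0.25 log2 (-0.61 without the 80 min array, -0.38 without 110 min and -0.16 without 90 min). MCM5, a subunit of the replicative helicase named after its value was seen, was the 1 gene with an unadjusted p under 0.05 (-0.62 ± 0.21 log2, adjusted p = 0.392). In the SIC1 cluster none of 23 passed, 18 were positive, and 8 of these had an unadjusted p under 0.05, against 6.28% of all tested genes. The cluster's median was 0.40 log2. That median was 0.12 log2 without the 80 min array, 0.14 without the 110 min array, 0.75 without the 120 min array and 0.86 without the 90 min array. SIC1, the inhibitor of B-type cyclin kinase, measured 0.44 and -0.46 log2 against -0.36 and -0.08, so its windows overlapped (difference 0.21 ± 0.28, adjusted p = 0.829). Larger values belonged to glucanase genes that act in daughter cell separation. DSE2 and SCW11 measured 0.24 and 0.26 log2 at 80 min, -0.83 and -0.80 at 90 min, -2.03 and -2.10 at 110 min and -2.31 and -1.68 at 120 min. Their differences were 1.88 ± 0.32 and 1.63 ± 0.33 log2, and neither passed (adjusted p = 0.099 and 0.147). Other members turned upward at 120 min. TEC1, a transcription factor of filamentous growth, went from 0.38 log2 on the 110 min array to 3.07 on the next, and ASH1, the daughter-specific repressor of HO, from -0.78 to 0.48.

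In the stress response list 1 of 25 tested genes passed, against 0.276% of all tested genes in that direction. This was TSL1, a subunit of the trehalose synthase complex. It measured 1.49 and 1.25 log2 at 80 and 90 min and 0.20 and 0.19 at 110 and 120 min (difference 1.18 ± 0.13, adjusted p = 0.0373). PGM2 and HXK1, enzymes of hexose phosphate metabolism named after their values were seen, differed by 0.83 ± 0.12 and 0.94 ± 0.14 log2 and missed the threshold (adjusted p = 0.0543 for both). The stress list as a whole had a median difference of 0.12 log2, with 17 positive and 8 negative. At an unadjusted p under 0.05 by limma, 6 of its genes were higher in G1/S and 0 in mitosis, against 6.28% and 4.11% of all tested genes. No gene was called by limma among 25 pheromone response and MATa-specific genes, 4 MATalpha-specific, 25 methionine and sulfate, 18 phosphate, 42 ribosome biogenesis, 21 glycolysis or 138 cytosolic ribosomal protein genes. At an unadjusted p under 0.05, 3 and 2 pheromone genes were higher in G1/S and in mitosis, and 1 and 8 phosphate genes. Over all tested genes the shares were 6.28% and 4.11%. For methionine the counts were 0 and 3, for ribosome biogenesis 0 and 1, for glycolysis 4 and 0, and for MATalpha-specific and ribosomal protein genes 0 and 0. The acid phosphatase genes PHO3 and PHO5, close copies, both differed by -1.14 log2 (adjusted p = 0.246 and 0.122), and whether their spots share signal was not tested. In the glycolysis list the median was 0.06 log2, and the largest differences belonged to the glucose transporters HXT2 and HXT4, with 1.39 ± 0.36 and 1.03 ± 0.15 log2 (adjusted p = 0.241 and 0.0543).

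Of the 23 called genes, 10 were in no list. CSI2 measured 0.74 and 0.41 log2 at 80 and 90 min and -0.98 and -1.28 at 110 and 120 min, and fell by a difference of 1.70 ± 0.17 log2, or 3.25-fold (adjusted p = 0.0304). PRY2, a secreted sterol-binding protein, measured 1.07 and 0.84 log2 against -0.19 and -0.51 (difference 1.31 ± 0.16, adjusted p = 0.0373). On the mitotic side NCE102, a protein of the eisosomes of the plasma membrane, measured -0.81 and -0.62 log2 against 0.70 and 1.19 (difference -1.66 ± 0.18, adjusted p = 0.0373). IRC8 measured 0.12 and -0.07 log2 against 0.95 and 1.07 (difference -0.98 ± 0.13, adjusted p = 0.0478).

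The other 6 called genes in no list were all higher in G1/S and are named after their values were seen. RTT107, a scaffold of repair at replication forks, differed by 1.09 ± 0.14 log2, ERP3, of the p24 family of vesicle proteins, by 1.07 ± 0.12, and NFG1, a negative regulator of filamentous growth, by 1.17 ± 0.16 (adjusted p = 0.0478, 0.0373 and 0.0478). YNK1, the nucleoside diphosphate kinase, differed by 1.03 ± 0.13 log2 and YKL066W by 0.98 ± 0.12 (adjusted p = 0.0478 and 0.0373). YNK1 is YKL067W, the next number on the same chromosome arm, and whether their spots share signal was not tested. HXT6, a glucose transporter with a nearly identical copy in HXT7, differed by 1.13 ± 0.15 log2 (adjusted p = 0.0486). HXT7 differed by 0.91 ± 0.16 log2 and did not pass (adjusted p = 0.11).

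Several of the largest differences in no list came from 1 array. CRF1 and YPS5 stood at -3.45 and -3.55 log2 at 120 min, against -0.52 or more on the other 3 arrays, and their differences of 2.13 ± 0.82 and 2.03 ± 0.95 log2 had adjusted p of 0.442 and 0.512. LOC1 was at -3.65 log2 at 90 min and CTF13 at 2.55 at 80 min, and both lay within 1 log2 of 0 on the other 3 arrays. These 4 genes passed the switch rule and not the test, and they are named for this after their values were seen.

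The 100 min array lies between the windows and took no part in choosing genes. A gene's position there was set to 1 at its mean of 80 and 90 min and to 0 at its mean of 110 and 120 min. The 17 called genes higher in G1/S had a median position of 0.56, and the 6 higher in mitosis 0.39. HSL1 stood at 0.06, since its ratio had already reached -0.44 log2 at 100 min, while YKL066W stood at 0.79 and YNK1 at 0.78. The core histones had a median of 0.82 and a range from 0.62 to 0.96, against a median of 0.45 over all tested genes. Their median ratio was 0.12 log2 at 80 min, 0.63 at 90 min and 0.18 at 100 min. The position is set against the mean of 80 and 90 min, so it does not show this drop from 90 min. In the CLB2 cluster the 11 genes of the switch rule had a median of 0.28. CDC5, SUR7, CLB1 and CLB2 lay between -0.0035 and 0.11, so their ratios at 100 min were close to those of 110 and 120 min. CHS2, HST3 and HOF1 lay at 0.28, 0.35 and 0.42, MMR1 at 0.46, CDC20 at 0.75 and PHO3 at 1.001. Each position rests on 1 array and has no test.

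**Figure D4:**
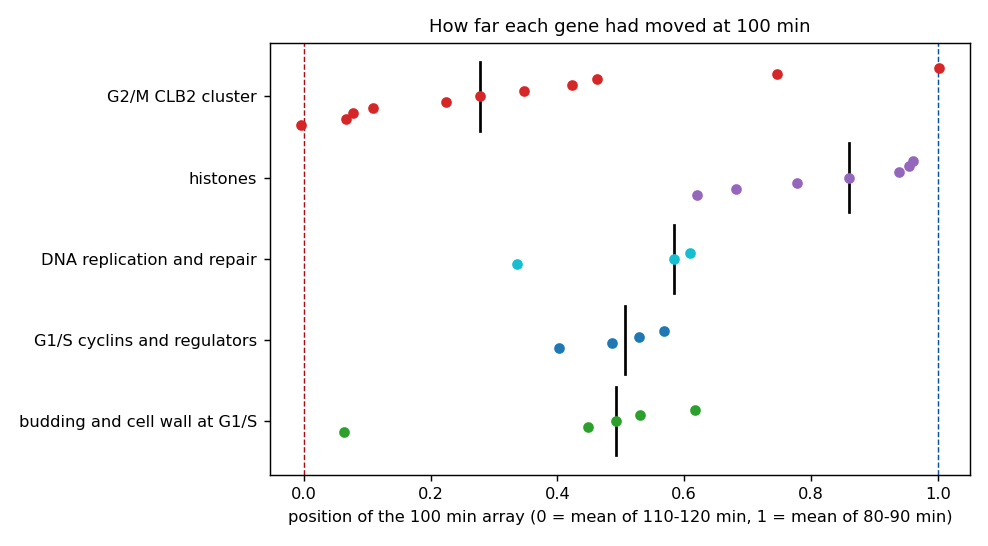
Position of the 100 min array (x axis, no unit, 0 at the mean of 110 and 120 min and 1 at the mean of 80 and 90 min) for genes of 5 lists that were called or passed the switch rule. Each point is a gene, vertical offsets only separate points, and black bars are list medians. Histone genes lie at 0.62 or above, and 7 of the 11 CLB2 cluster genes lie below 0.4.

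The samples taken 60 min earlier stand at the same place of the nominal cycle. Their difference, 20 and 30 min minus 50 and 60 min, used none of the 4 arrays compared above. It crosses the file stamps in the sample titles, which the arrays of 20 and 30 min share with those of 0 and 10 min (set A, 4 arrays) and those from 40 min on do not (set B, 9 arrays). The labels do not say what a stamp records, so array set and cycle cannot be told apart. Of 22 called genes with a value in both cycles, 21 had the same sign, against 61.3% of 6037 genes. The exception was NFG1, at 1.17 log2 in the second cycle and -0.40 in the first. TSL1 and HXT6 were called in the second cycle and stood at 0.22 and 0.21 log2 in the first.

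First-cycle values of the cell cycle lists were mostly larger in size. SDs over all genes were also wider on 3 of the first-cycle arrays, at 0.50, 0.45 and 0.43 log2 at 20, 30 and 60 min. The SD was 0.34 log2 at 50 min, and 0.31 to 0.35 on the second-cycle arrays. Whether this spread accounts for the larger values was not tested. For the core histones the first-cycle differences ran from 1.79 to 2.42 log2, against 0.996 to 1.35 in the second cycle. The median of the CLB2 cluster was -1.48 log2 against -0.82, and CHS2 stood at -3.02 against -1.71. The median of replication and repair genes was 0.93 log2 against 0.55 over the same genes. For RFA1 the values were 1.92 and 1.28 log2, and for CLN2 2.01 and 1.55. CLN1 was at 1.16 and 1.19 log2. The SIC1 cluster had a median of -0.78 log2 in the first cycle and 0.40 in the second, and EGT2, a glycosylphosphatidylinositol-anchored protein of cell separation named after its value was seen, was at -2.17 and 1.35. Its medians of -1.73 and -1.72 log2 at 20 and 30 min stood below the 0.42 and -0.35 of 80 and 90 min. By a limma test of the difference between cycles, 0 of 6037 genes passed (0.0%), and 605 had an unadjusted p under 0.05. Of these 605, 11 were among 23 genes of the SIC1 cluster, 16 among 23 methionine and sulfate genes and 10 among 27 of the CLB2 cluster. Histones held 4 among 10 genes, and budding and cell wall 5 among 27. Replication and repair held 3 among 35, and G1/S cyclins and regulators 1 among 16. The share to set beside these counts is 605 of 6037 genes. The smallest adjusted p was 0.147.

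**Figure D5:**
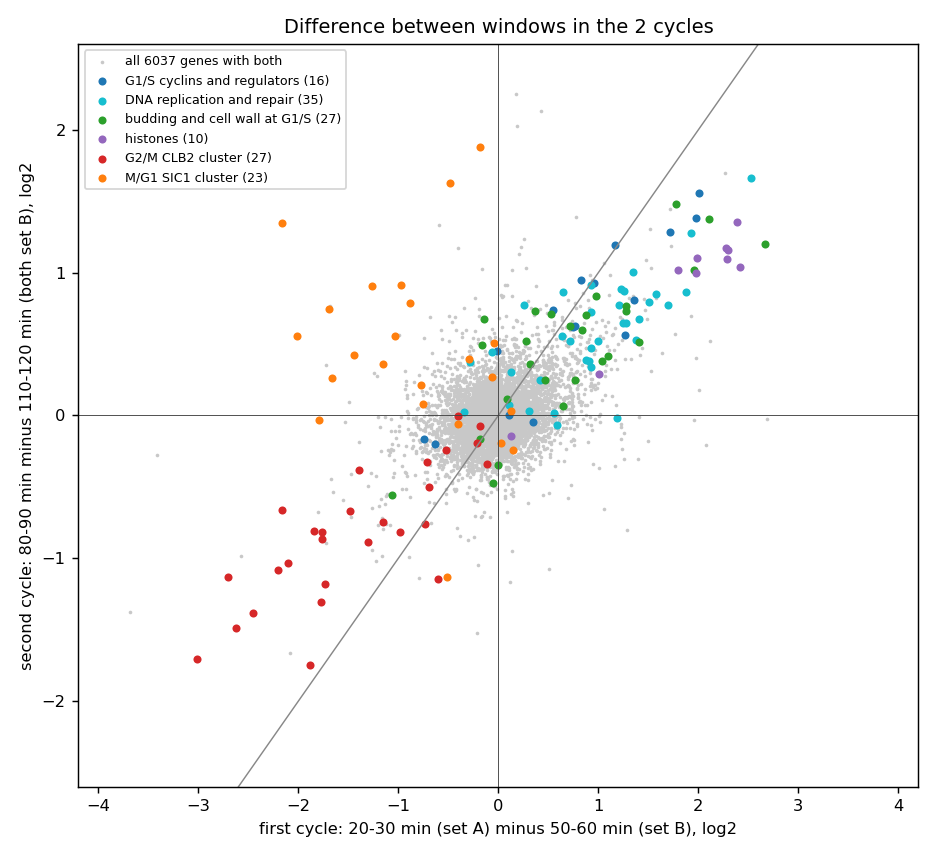
Difference between windows in the first cycle (x axis, 20 and 30 min minus 50 and 60 min, log2) against the second (y axis, 80 and 90 min minus 110 and 120 min, log2) for 6037 genes, with 6 lists in colour and the line of equal differences. Core histones and most replication genes lie at upper right below the line, the CLB2 cluster at lower left above it, and most of the SIC1 cluster at upper left.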

How the data were processed

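The deposited values are log10 ratios by the authors, 1 per feature and array. The base was read from the values, which end at 2 in size (100-fold). The scanner, the background correction and the normalization were not given in the sources used here. The number of arrays, 4, limits the precision. Ratios were multiplied by 3.32 to give log2 values and used as deposited otherwise. Values within 0.01 of the limit were set to missing (25 on the 4 arrays). Of 6205 open reading frame rows, 5704 matched a name in RefSeq's gene table (R64 assembly). The 12 control rows were left out. The 6158 rows with values on all 4 arrays were tested with limma 3.58.1 in R 4.3.3 (lmFit and eBayes, 2 residual and 4.82 prior degrees of freedom, Benjamini-Hochberg over all rows, two-sided). The comparison of cycles used 8 arrays. Lists were summarised with Python 3.11.15, NumPy 2.4.6 and pandas 2.3.3, and plots made with matplotlib 3.10.9.

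The genes described, the 19 lists, the tests and the alternatives were chosen with earlier results of these data known. The text names all G1/S cyclins and regulators, G2 factors and cyclins, CLB1, CLB2, CDC5, CDC20, SWI5, SIC1 and CLN3, up to 3 called genes of each other list, the 8 largest calls on each side, and lists of 10 or fewer genes. Any other gene was named after its values were seen. Lists are described by counts and medians, without a test of their own. A few genes are not reported here. Promoter motifs, also planned, were not analysed here.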

Additional observations from a re-analysis of the deposited data

How the results depend on the processing

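The count of 23 called genes was 0 with values at the limit kept (609 at an unadjusted p under 0.05 by limma), 14 with a value required on 3 of the 4 arrays, 0 with the spread taken from 5 windows of set B (631), 0 with a common slope inside the windows (561) and 133 with a 60 min curve over set B. Leaving out 1 array gave from 0 (without 120 min, 485 at an unadjusted p under 0.05) to 63 (without 90 min). Quantile normalization gave 23, median centring 29 and robust shrinkage 31, and 21, 23 and 23 of the 23 genes passed there. The switch rule took 59 genes and, without 1 array, from 54 to 88, and 216 at a threshold of 0.58 log2. The comparison of cycles gave 0 genes, 4 with values at the limit kept, and from 0 to 31 without 1 array (31 without 50 min). All 23 called genes kept their sign in the 12 alternatives of the first test, which windows without overlap largely fix in advance. Among genes without a call, signs were followed only for the regulators named whatever their result. Of these regulators, CLB5, YHP1, NRM1, WHI5, MSA1, FKH1, FKH2, MCM1, PLM2, TOS8, CLB3, SIC1 and CLN3 changed sign in at least 1 alternative. The calls rest on 2 arrays a window, so time and measurement error cannot be told apart. No paired analysis was possible because each time point has 1 array.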
